A study of Rattus norvegicus with 3 samples.

Results

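Genes of long synaptic and axonal adhesion were examined for chromatin bound by the nuclear pore protein Seh1 in oligodendrocyte progenitor cells (OPC). The set held 51 named genes, and its peaks were the rows of the deposited OPC peak annotation whose gene name was on that list, the gene being that of the nearest transcription start site (TSS). By this rule 69 of 9084 annotated OPC peaks belonged to the set, and 33 of the 51 genes had at least 1. Among protein-coding genes as a whole, 30.1% of 18533 had an OPC peak, against 64.7% here. The genes of the set were chosen with earlier results of these data known. Whether that choice raised the share was not tested. Most of the genes are adhesion molecules or their scaffolds. Rbfox1 (a splicing factor), Macrod2 (an ADP-ribose hydrolase), Sgcz (a sarcoglycan), Lrp1b (a lipoprotein receptor relative) and the growth factor genes Nrg1 and Nrg3 are on the list without being synaptic adhesion molecules. Gene length was not measured on the build of the files.

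Chromatin immunoprecipitation and sequencing (ChIP-seq) was carried out with an antibody to Seh1 on rat cells from the forebrain of Sprague Dawley pups of postnatal day 1 to 2. OPC were grown with PDGF-AA, CNTF, bFGF and NT3. Immature oligodendrocytes (iOL) were such cells after 1 day of triiodothyronine (T3) at 60 nM without PDGF-AA, bFGF and NT3. The labels name no genetic change in either group, and an IgG library of iOL was not analysed here. Each Seh1 group was 1 library, with 9117 peaks of 205 bp in OPC and 6704 peaks of 209 bp in iOL, on rat build rn6. The depth of each library is unknown, there is no replicate error, and no test was made between stages. Peak lists carry no expression, so the cell type was not checked against its markers. All intervals on shares are exact binomial 95% intervals that cover counting error only.

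Synaptic adhesion molecules are membrane proteins that bridge the gap between a neuron's terminal and its partner and recruit scaffolds on both sides. Neurexins on the presynaptic side bind neuroligins and LRRTM proteins across the cleft, while contactins, Caspr proteins and the L1 family also build the contacts between axon and myelin at the node of Ranvier. OPC receive synapses from neurons, and oligodendrocytes make a glial form of neurofascin that anchors the myelin edge to the axon. Many of these genes have very long introns, so that a peak inside the gene can be far from any TSS.

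Seh1 peaks of these genes lay in introns and far from the TSS more often than near it. Introns more than 1 kb from a TSS held 36 of 69 peaks, 52.2% (39.8 to 64.3%), where 26.7% of all annotated OPC peaks were of this class. Within 1 kb of a TSS there were 5 peaks, 7.25% (2.40 to 16.1%), beside 9.47% of all OPC peaks. The other 28 peaks (40.6%, 28.9 to 53.1%) lay between genes, and 0 lay in exons or transcript ends beyond 1 kb, a class that held 7.11% of all OPC peaks. A count of 0 among 69 allows a share of up to 5.21% (upper exact bound). The counting interval of the intron share lies above the level over all peaks, while that of the share within 1 kb of a TSS includes it. Within 10 kb of a TSS the set had 13.0% of its peaks (6.14 to 23.3%), below the 25.4% of all OPC peaks. Peaks of 1 gene share their source, so these intervals are too narrow for a statement over genes, and no test was made.

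Distances to the TSS were long. The median peak of the set stood 240.7 kb from the nearest TSS, against 34.8 kb over all OPC peaks, and 48 of 69 (69.6%, 57.3 to 80.1%) stood 100 kb or more away, against 26.6%. Among the 36 intron peaks 24 were at least 100 kb from the TSS (66.7%), compared with 17.3% of 2424 such intron peaks in the table. Intron 1 held 14 of the 36 and introns 1 to 5 held 30. Of the 28 intergenic peaks 24 lay upstream of the gene named and 4 downstream. The deepest peak was in intron 53 of 99 of Lrp1b, 1865 kb from its TSS.

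The high share of genes with a peak rested on distant peaks. With peaks within 50 kb of a TSS alone, 10 of 51 genes had 1, or 19.6%, compared with 22.1% of all protein-coding genes. Without peaks in annotated repeats the shares were 41.2% and 22.7%. A gene far from its neighbours collects every peak up to the midpoint, and the length of genome around each gene was not measured. Its part in the count was not tested.

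**Figure D1:**
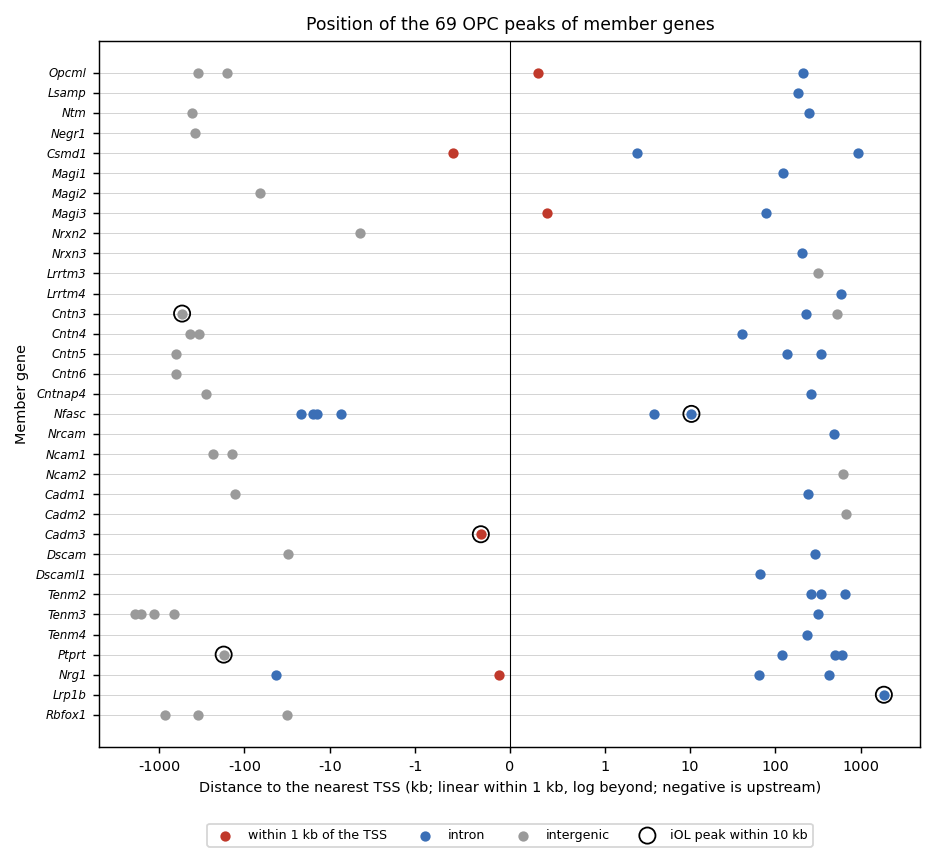
Signed distance from each of the 69 OPC peaks (points) to the nearest TSS in kb, by gene, linear within 1 kb and logarithmic beyond, coloured by class, with a ring where an iOL peak lies within 10 kb. Most points sit 100 kb or more from the TSS, 5 lie within 1 kb, and 5 carry a ring.

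Peaks within 1 kb of a TSS were found at Nrg1, Opcml, Cadm3, Magi3 and Csmd1, with 1 peak at each gene. At Nrg1, the axonal growth factor that signals to ErbB receptors on glia, the peak was centred 116 bp upstream (chromosome 16, 62969770 to 62969974, score 7.02). The score is the authors' caller's value per peak, and its definition is not stated. At Opcml, a GPI-anchored adhesion protein of the IgLON family, the peak was in the 5' UTR of exon 1, 291 bp downstream of the TSS (chromosome 8, 29453367 to 29453571, score 7.02). Cadm3, an immunoglobulin adhesion molecule found on axons, had its peak 307 bp upstream (chromosome 13, 91873158 to 91873362, score 7.66). Magi3, a scaffold at cell junctions, had it in exon 1 of 21, 396 bp downstream (chromosome 2, 206698607 to 206698811, score 8.3). Csmd1, a large CUB and sushi domain membrane protein, had it 598 bp upstream (chromosome 16, 77152123 to 77152327, score 7.66). These scores lie close to the median of all OPC peaks, 7.66. The next peak out from a TSS was in intron 1 of 67 of Csmd1, at 2384 bp, so that Csmd1 had 2 peaks around its start and the other 4 genes 1.

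The 250 bases upstream of the TSS are shown for Cadm3 and Magi3, the genes with a peak centred within 500 bp of a TSS whose promoters were matched in the RefSeq table, which has no entry for Nrg1 and Opcml. On rn6 the Cadm3 peak runs from -409 to -205 bp and so reaches into this window, and the Magi3 peak lies past the TSS, from 294 to 498 bp. The sequences are RefSeq's on build GRCr8, where a TSS may differ from that of rn6 (Cadm3, chr13:88349719-88349968, minus strand; Magi3, chr2:194405148-194405397, minus strand). Capitals mark the E-box CANNTG, the letters recognised by basic helix-loop-helix factors such as Olig2, searched on both strands; CAGCTG is 1 form of it.
Cadm3: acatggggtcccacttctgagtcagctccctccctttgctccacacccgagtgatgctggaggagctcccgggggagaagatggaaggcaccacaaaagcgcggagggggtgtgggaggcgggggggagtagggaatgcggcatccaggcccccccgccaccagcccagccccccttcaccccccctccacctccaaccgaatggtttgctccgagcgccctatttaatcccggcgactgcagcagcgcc
Magi3: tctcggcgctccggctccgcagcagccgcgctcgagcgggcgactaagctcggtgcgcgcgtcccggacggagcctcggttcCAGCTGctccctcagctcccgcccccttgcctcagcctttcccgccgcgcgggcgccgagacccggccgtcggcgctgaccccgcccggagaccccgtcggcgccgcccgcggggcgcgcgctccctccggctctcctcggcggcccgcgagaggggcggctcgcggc
The Cadm3 window held 0 matches to CANNTG, and the Magi3 window 1, which was CAGCTG, 168 bases before the TSS. Among 33469 promoters of the same length 65.5% held a CANNTG and 12.0% a CAGCTG, so neither result is rare. Both windows were rich in G and C, 66.4% at Cadm3 and 80.4% at Magi3, with a median of 51.2% over all promoters, and they held 13 and 46 CpG pairs with a median of 5.

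The authors' table also classes each peak under wider promoter definitions. Under HOMER's own definition the authors' deposited table put 3 peaks of the set at promoters (Cadm3, Csmd1 and Nrg1), 4.35%, with 4.02% of all peaks. With its column named for 1 kb downstream the number rose to 6, or 8.70%, through Magi3, Opcml and the Nrxn2 peak 4437 bp upstream of its listed TSS, while the share over all peaks rose to 12.2%. In the column of the authors' deposited table named for 5 kb it was 8 peaks, 11.6% of the set, and 16.8% of all. The intervals of these shares, 3.26 to 18.0% and 5.14 to 21.6%, include the shares over all peaks.

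Peak number per gene was uneven. Of the 51 genes 18 had 0 peaks, 16 had 1, 6 had 2 and 11 had 3 or more. Those 11 genes, 21.6% of the set, compare with 3.87% of protein-coding genes that had 3 or more, and they held 41 of the 69 peaks. The set was chosen with earlier results of these data known, and the part of that choice in this contrast was not tested. Outside the set, 8 of 27 paralogs and 10 of 52 other synaptic adhesion genes also had 3 or more. So did 8 of 73 cadherin and protocadherin genes and 4 of 44 glutamate and GABA receptor genes. In the set itself the counts were as follows. Nfasc had 6, Tenm3 5, and Opcml, Ptprt and Nrg1 4 each. Csmd1, Cntn3, Cntn4, Cntn5, Tenm2 and Rbfox1 had 3 each. With peaks within 50 kb alone, Nfasc was the gene that still had 3 or more (1.96% of the set, with 0.788% of protein-coding genes).

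**Figure D2:**
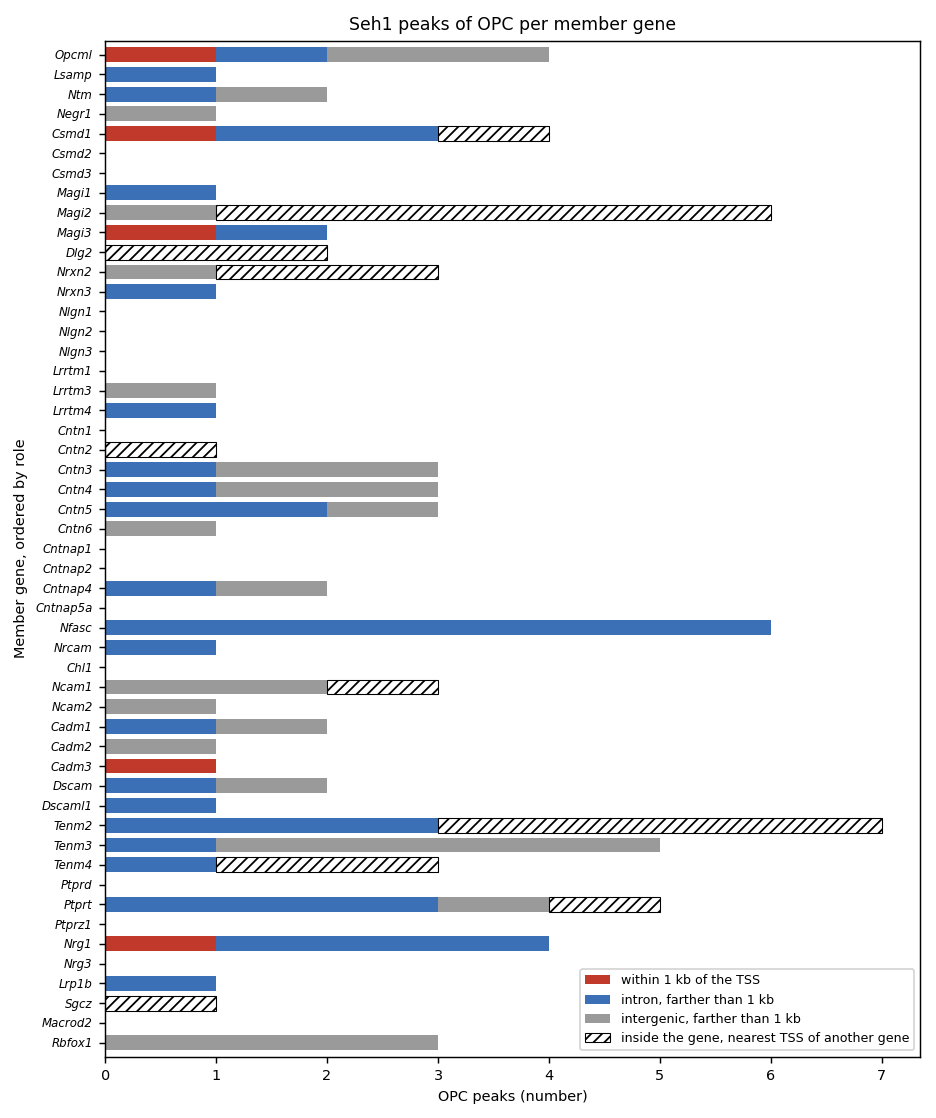
Number of OPC peaks per gene (bars, stacked by class) for the 51 genes in order of role, with hatching for peaks that lie inside the gene but are nearest to the TSS of another gene. Nfasc leads by nearest TSS with 6 intron peaks, and Tenm2 has 7 and Magi2 6 once hatched peaks are added.

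Of the L1 family, neurofascin and its relatives that link axons, nodes and glia, Nfasc had the densest group of peaks. All 6 of its peaks were in introns of 1 annotated transcript, on chromosome 13 within 92.0 kb. Intron 2 of 29 held 3 of them within 7.67 kb, at 49427854 to 49428058, 49429433 to 49429637 and 49435322 to 49435526, with scores of 7.02, 7.02 and 8.94. The others were in intron 1 (49495229 to 49495433, score 7.02), intron 3 (49409977 to 49410181, score 7.02) and intron 7 (49403419 to 49403623, score 7.66). Gaps between neighbouring peaks ran from 1374 to 59702 bp. The table lists more than 1 TSS for Nfasc, so that 4 of these intron peaks have a negative distance, and the peak of intron 3 lies 3806 bp past a TSS. Nrcam, which joins neurofascin at nodes, had 1 peak in intron 3 of 32 at 488 kb, in a copy of the repeat RatSatRep2, with a score of 10.2. Chl1, a neuronal member of the family, had 0.

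Among contactins and Caspr proteins, Cntn1 and Cntnap1 are the axonal partners of glial neurofascin at the paranode, and Cntn2 and Cntnap2 form the complex of the juxtaparanode next to it. By nearest TSS these 4 genes had 0 peaks. The peaks of this group were at Cntn3, Cntn4, Cntn5, Cntn6 and Cntnap4, contactins and a Caspr of neuronal circuits, which had 3, 3, 3, 1 and 2. Their 12 peaks were 5 in introns and 7 between genes, and the nearest was 40.2 kb from a TSS, in intron 1 of Cntn4 (score 9.58, in a LINE repeat). Cntn5 had 2 intron peaks, in introns 1 and 5 of 22 at 138 and 341 kb. Cntn3 had peaks on both sides of its TSS, 538 kb upstream, 231 kb downstream in intron 12 of 21, and 525 kb downstream between genes.

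IgLON proteins are small GPI-anchored adhesion molecules of neurons, and the 4 genes in the set each had a peak. Over all protein-coding genes 30.1% had a peak, and Iglon5, a family member outside the set, had 0. Opcml had 4, which besides the 5' UTR peak were in intron 1 at 209.9 kb (score 5.75) and at 158 and 350.1 kb upstream (score 7.02 each). Ntm, its neighbour in the family, had an intron 1 peak at 249 kb and an intergenic peak at 414 kb upstream. Lsamp had 1 in intron 1 at 183 kb and Negr1 1 at 376 kb upstream, each with score 7.66.

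Teneurins, large transmembrane ligands that bind latrophilins across the synapse, had 9 peaks at 3 genes. The 3 peaks of Tenm2 were in introns 2 and 3 of 29, at 260, 344 and 660 kb (scores 7.02, 6.38 and 7.02). Tenm3 had 1 intron peak at 319 kb and 4 intergenic peaks 673, 1143, 1622 and 1935 kb upstream. The peak at 1143 kb (chromosome 16, 45280691 to 45280895), in a LINE repeat, had the highest score of the set, 13.4. Tenm4 had 1 peak in intron 4 of 31 at 234 kb.

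Neurexins, neuroligins and LRRTM proteins, the classical pairs of synapse formation, had few peaks: 4 of 8 genes had 1 each. Nrxn2 had an intergenic peak 4437 bp upstream (chromosome 1, 221796985 to 221797189, score 7.66). Nrxn3 had a peak in intron 4 of 22 at 206 kb, Lrrtm4 in its intron at 585 kb and Lrrtm3 between genes at 319 kb. The 3 neuroligin genes Nlgn1, Nlgn2 and Nlgn3 and the gene Lrrtm1 had 0.

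The immunoglobulin adhesion genes Ncam1, Ncam2, Cadm1, Cadm2, Cadm3, Dscam and Dscaml1 all had a peak, 10 in sum, of which 6 were intergenic. Ncam1, the neural cell adhesion molecule, had 2 at 139 and 234 kb upstream with scores of 6.38 and 5.75, Cadm2 had 1 at 680 kb downstream and Ncam2 1 at 623 kb downstream. Cadm1 had 1 in intron 1 at 241 kb and 1 at 128 kb upstream, Dscam 1 in intron 3 at 289 kb and 1 upstream at 30.6 kb, and Dscaml1 1 in intron 3 at 65.3 kb. The receptor phosphatase gene Ptprt had 3 intron peaks, in introns 4, 7 and 11 of 27 at 121, 504 and 606 kb, and 1 peak 175 kb upstream. Ptprd, which binds Slitrk proteins, and Ptprz1, a proteoglycan abundant in OPC, had 0. Nrg1 had 3 intron 1 peaks besides the promoter peak, at 63.9 and 420 kb and at 43.2 kb upstream of the TSS listed for it, while Nrg3 had 0.

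Of the 4 scaffold genes 3 had a peak by nearest TSS, with 4 peaks. Magi3 had a further peak in intron 1 at 78.6 kb. Magi1 had 1 peak in intron 1 at 123 kb and Magi2 1 intergenic peak at 66.5 kb upstream, and Dlg2, which encodes PSD-93, had 0. Rbfox1 had 3 intergenic peaks, 31.5, 353 and 853 kb upstream. Csmd1 also had a peak in intron 5 of 67, 941 kb from the TSS (score 8.94, in RatSatRep2), while Csmd2, Csmd3, Macrod2 and Sgcz had 0 by this rule.

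Counting by nearest TSS hid peaks that lay inside these genes. The transcript that the annotation names as host showed 20 further peaks inside 10 of the genes, 16 in introns and 4 in exons, given to genes next door. Magi2 gained 5 intron peaks, in introns 3, 6, 9, 16 and 20 of 23, all named for Phtf2. Tenm2 gained 4, in introns 3, 4 and 16, named for Rars, which brought it to 7 intron peaks, the most of any gene on the list. Dlg2 gained 2 intron peaks named for Ccdc89, in introns 2 and 3 of 22. Tenm4 gained 2 exon peaks, in exon 5 (score 7.02) and exon 30 of 32 (score 10.2), and Nrxn2 gained 1 in intron 16 (score 9.58) and 1 in exon 20. Csmd1, Ncam1, Ptprt and Sgcz gained 1 intron peak each, and Cntn2 gained 1 in exon 18 of 23 (chromosome 13, 49289929 to 49290133, score 7.66). Cntn2, Dlg2 and Sgcz thereby had a peak, which left 15 genes with 0 by either rule: Csmd2, Csmd3, Nlgn1, Nlgn2, Nlgn3, Lrrtm1, Cntn1, Cntnap1, Cntnap2, Cntnap5a, Chl1, Ptprd, Ptprz1, Nrg3 and Macrod2. Whether the authors' rn6 annotation covers each of these 15 genes was not checked, and a gene missing from it would have 0 peaks.

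With both rules the set had 89 peaks at 36 genes (70.6% of 51), while 32.3% of protein-coding genes had a peak. Intron peaks numbered 52, of which 16 were nearest to another gene's TSS, 30.8% (18.7 to 45.1%). Over all OPC intron peaks with a known host this share was 25.3%, within the interval of the set. The mismatch between host and nearest TSS was therefore not larger here than counting error allows.

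**Figure D3:**
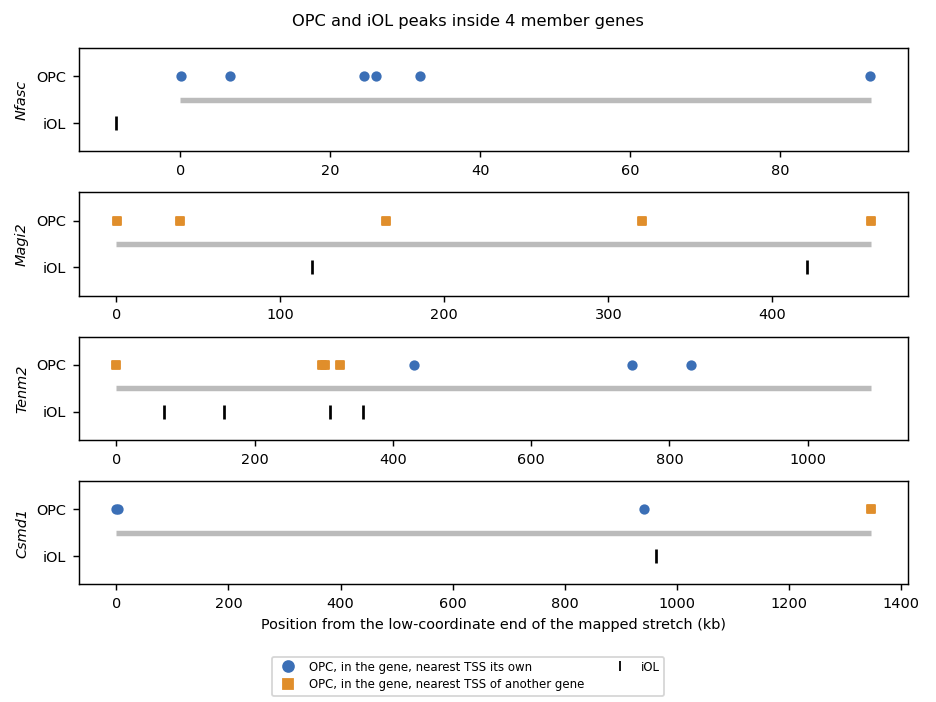
OPC peaks (upper row of each panel) and iOL peaks (ticks, lower row) along 4 genes, in kb from the low-coordinate end of the stretch between the outermost OPC peaks or TSS (grey bar). Blue points are nearest to the gene's own TSS and orange squares to that of another gene; the 3 close peaks of Nfasc intron 2 and the 5 Magi2 peaks named for Phtf2 can be seen.

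The share of these OPC peaks with an iOL neighbour within 10 kb was below that of OPC peaks in general, within counting error. An iOL peak lay within 10 kb of 5 of the 69 OPC peaks, 7.25% (2.40 to 16.1%), beside 10.3% of all annotated OPC peaks. The difference is within the counting interval, which is too wide to show equal frequency. The 5 peaks belonged to Cntn3, Lrp1b, Cadm3, Ptprt and Nfasc. In 2 of them the peaks overlapped, 2.90% (0.353 to 10.1%), beside 1.73% of all OPC peaks. An overlap of 131 bp was at the RatSatRep2 copy 538 kb upstream of Cntn3 (chromosome 4, 135608170 to 135608374), and 1 of 138 bp was at a simple C repeat in intron 53 of Lrp1b (chromosome 3, 25482554 to 25482758). Both overlaps of the set were thus in annotated repeats.

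The other 3 had an iOL neighbour without overlap. The Cadm3 promoter peak had an iOL peak 2811 bp away (chromosome 13, 91876174 to 91876382). The intergenic peak 175 kb upstream of Ptprt had iOL peaks at 2884 and 3982 bp. The Nfasc peak of intron 7 had an iOL peak 8405 bp away (chromosome 13, 49394805 to 49395013), and that was the sole iOL peak from 50 kb below the lowest Nfasc peak to 50 kb above the highest. Just outside the limit of 10 kb, the intron peak of Ntm had an iOL peak at 13202 bp.

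At wider gaps, 23.2% of the peaks (13.9 to 34.9%) had an iOL peak within 50 kb and 34.9% of all OPC peaks did, at the upper end of that interval. Within 100 kb the share was 37.7% (26.3 to 50.2%), and that of all peaks, 53.4%, lay above the interval. The median gap to an iOL peak was 159.5 kb for the set and 88.3 kb for all. Position relative to the TSS moved with this: of all OPC peaks 100 kb or more from a TSS 7.65% had an iOL peak within 10 kb, and of the 48 of the set 3 did. Its part in the difference was not tested.

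**Figure D4:**
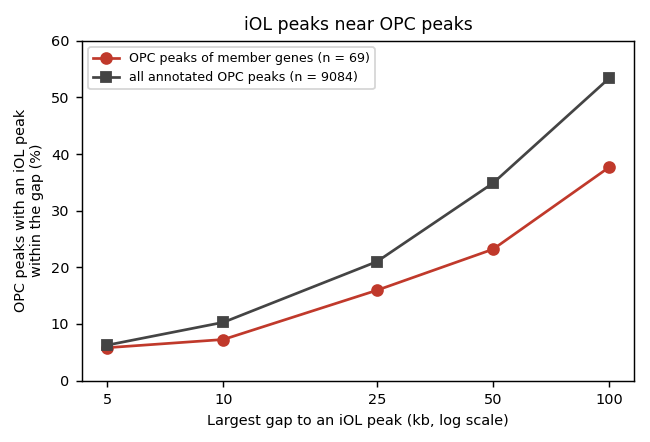
Percent of OPC peaks with an iOL peak within a gap of 5 to 100 kb (log axis), for the 69 peaks of the set (red circles) and all annotated OPC peaks (grey squares). The curves are close at 5 kb, 5.80% and 6.25%, and part to 37.7% and 53.4% at 100 kb.

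Of 61 OPC peaks that lay inside a gene of the set by host transcript, 1 overlapped an iOL peak, the Lrp1b peak, or 1.64% (0.0415 to 8.80%), near the 1.73% over all OPC peaks. For 20 genes the OPC peaks and, where it could be inferred, the TSS bracketed a stretch of more than 1 kb of the same transcript, 7.57 Mb in all. These stretches held 14 iOL peaks at 10 genes. Tenm2 had 4 iOL peaks over 1091 kb and Magi2 2 over 460 kb. Csmd1, Dlg2, Cntn3, Cntn5, Cadm1, Dscam, Tenm3 and Nrg1 had 1 each, and the 92.0 kb of Nfasc and the 765 kb of Ptprt had 0. The density of iOL peaks over the genome was not computed, so these counts, and those of 0, are not read as many or few. The further intron peaks of Tenm2, Dlg2, Ncam1 and Nrxn2 that were named for other genes each included 1 with an iOL peak within 10 kb, at 7401, 9128, 9028 and 9354 bp. These were 4 of the 20 further peaks, 20.0% (5.73 to 43.7%), and with them the share was 9 of 89, 10.1% (4.73 to 18.3%), level with the 10.3% over all OPC peaks.

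The 69 peaks took 9 different scores from 5.75 to 13.4, with a median of 7.02 and quartiles of 6.38 and 7.66, while all OPC peaks had a median of 7.66 and quartiles of 7.02 and 8.3. Of the set 42 peaks scored below the overall median, 60.9% (48.4 to 72.4%) with 48.1% of all peaks, and 15 scored above it, 21.7% (12.7 to 33.3%) with 27.6% of all. The 8 highest, at 8.94 or more, were those of Tenm3, Nrcam, Cntn4, Lrp1b, Cntn3, Cntn5, Csmd1 and Nfasc, and 7 of the 8 lay in annotated repeats, the Nfasc peak of intron 2 being the exception. With the peaks at 8.3, which tie for the last of 10 ranks, there were 15, of which 11 were in repeats. The share in repeats among all OPC peaks with such scores was not counted, so this is not read as a trait of the set. The focus ratio, a fraction that the authors' caller gives for each peak, had a median of 0.789 in the set and 0.778 over all.

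Repeats held 30 of the 69 peaks (43.5%, 31.6 to 56.0%), with 33.2% of all OPC peaks. LINE repeats held 12 (17.4% against 9.93%), LTR repeats 6 (8.70% against 7.78%), RatSatRep2 copies 4 (5.80% against 3.07%), simple repeats 4 (5.80% against 3.80%) and SINE repeats 2 (2.90% against 5.60%). Of the intron peaks 11 were in repeats and of the intergenic peaks 19. Peaks in repeats had a median score of 7.66 and the others 7.02. Over all OPC peaks, the 6064 outside repeats had a median score of 7.66.

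Other genes of the same pathways were counted from lists of paralogs and partners that are not in the set. Of 27 paralogs 15 had an OPC peak (55.6%), with 37 peaks, of which 40.5% (24.8 to 57.9%) were in introns beyond 1 kb and 8.11% within 1 kb of a TSS. The receptor phosphatase genes Ptprg, Ptprs and Ptpru and the Caspr gene Cntnap5b had 4 peaks each, and the nearest peak of Ptprg lay 484 bp from its TSS. Of 52 partners and other synaptic organisers 37 had a peak (71.2%), with 80 peaks and an intron share of 33.8% (23.5 to 45.2%). They include Sdk2 with 6 peaks, Lrfn1, Lrrc4c, Kirrel3 and Slitrk1 with 5 each, and the neuregulin receptor gene Erbb4 with 2. The intervals of these intron shares overlap that of the set, which does not show that the shares are alike. Peaks 100 kb or more from a TSS were 45.0% (33.85 to 56.53%) for the partners, an interval below that of the set, 69.6% (57.3 to 80.1%). For the paralogs they were 51.4% (34.4 to 68.1%), an interval that overlaps it.

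Against gene families chosen by symbol the picture was mixed. Glutamate and GABA receptor genes had 23 of 44 genes with a peak (52.3%) and an intron share of 51.2% (35.1 to 67.1%), near that of the set. Cadherin and protocadherin genes had 27 of 73 (37.0%), an intron share of 12.5% (5.18 to 24.1%) and an intergenic share of 78.6% (65.6 to 88.4%), although their median distance to a TSS, 306.6 kb, was of the order of the set's. The intron share of the cadherin family and that of the adhesion set have intervals that do not overlap. Peaks within 1 kb of a TSS were 6.25 to 9.76% in all of these lists.

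**Figure D5:**
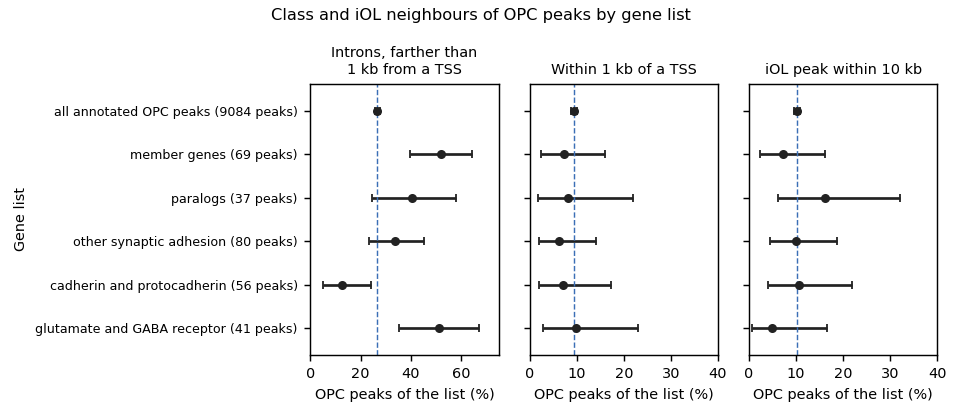
Percent of OPC peaks in introns beyond 1 kb, within 1 kb of a TSS, and with an iOL peak within 10 kb, for all annotated OPC peaks, the set and 4 other gene lists (points, with exact binomial 95% intervals; dashed line, all OPC peaks). The set and the receptor genes stand near 50% for introns, the cadherins at 12.5%, and the other 2 panels show intervals that overlap throughout.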

How the data were processed

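The authors deposited peak positions per Seh1 library and an annotated table recorded under iOL. Per the file headers it is the output of HOMER's annotatePeaks.pl on rn6, and its source file name joins OPC Seh1 with iOL IgG. Its 9084 intervals all equal OPC intervals and 0 equal iOL intervals, so it was used as the annotation of OPC; the other 33 OPC peaks have none. The submitters' processing notes name Bowtie2, HOMER, rn6 and hg18, without saying which did what. The score and the focus ratio (a fraction) are the authors' deposited values per peak; calling thresholds are not stated.

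Genes were matched by the table's gene name; Entrez IDs of the RefSeq gene table (GRCr8) gave the same 69 peaks for the 50 of 51 genes it holds; Lrrtm1 was matched by name alone. Host genes came from transcript accessions (3905 of 3930 matched). Gaps are bases between nearest edges; overlap means at least 1 bp. Finding gaps was checked on simulated data. Python 3.11.15, pandas 2.3.3 and scipy 1.17.1 were used. Members and lists were chosen with earlier results of these data known. Genes named are those with most peaks, peaks within 10 kb of a TSS, high scores, iOL neighbours or a role in axon-glia contact; others are given by family. Promoter sequences were matched for 33 of the 51 genes.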

Additional observations from a re-analysis of the deposited data

How the results depend on the processing

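Over the alternatives, 23 of 33 values stayed within the counting interval, the quartiles or 1.5 times the reported value, and 10 moved. Intron shares ran from 46.7% (peaks above the median score; 21.3 to 73.4%, which includes the 23.2% of all such peaks) to 64.1% (without repeats; 27.8% of all), and shares near the TSS from 6.67% (peaks above the median score; 11.5% of all) to 13.0% (limit of 10 kb; 25.4% of all). The number of genes with a peak, 33, was 10 with peaks within 50 kb of a TSS, 13 with peaks above the median score and 21 without repeats; the number of peaks, 69, was 17, 15 and 39, and the number of genes with 3 or more peaks, 11, was 1, 0 and 5. Each of these settings uses fewer peaks by construction. The same settings left 22.1%, 11.1% and 22.7% of protein-coding genes with a peak, against 19.6%, 25.5% and 41.2% of the set, and 0.788%, 0.270% and 1.83% with 3 or more, against 1.96%, 0% and 9.80%. Counting peaks by host transcript or nearest TSS, an alternative chosen after seeing the data, gave an iOL share of 10.1%. Widening the gap to 50 kb raised the share with an iOL peak from 7.25% to 23.2%. No paired analysis was possible because each group is 1 library. Depth is unknown, so whether more reads would add peaks to the 15 genes without any was not tested.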

Other observations

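Several genes owed their whole count of OPC peaks to the inside of a gene of the set next door. All 5 peaks named for Phtf2 lay in introns of Magi2, both peaks named for Ccdc89 in introns of Dlg2, and both named for Nars2 in exons of Tenm4. Of 5 peaks named for Rars, 4 lay in Tenm2. The single peaks named for Tmem81, Ttc12 and the microRNA gene Mir383 lay inside Cntn2, Ncam1 and Sgcz. None of Phtf2, Rars, Ccdc89 and Nars2 had an OPC peak inside its own transcript. These genes were picked after their values were seen.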
